A study of Mus musculus with 20 samples.

Results

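The 7 genes described here act in cholesterol metabolism of the brain: Hmgcs1, Idi1 and Sqle encode synthesis enzymes, Insig1 a regulator of synthesis, Cyp46a1 the enzyme of cholesterol elimination, Abca1 an exporter and Apoe the main lipid carrier. They were taken by name from the 49671 genes of the deposited count tables, and 7 of 7 were found and passed the filter on low counts, which kept 18427 genes. Their level was measured by bulk RNA sequencing in 20 libraries, each from 1 fresh-frozen hippocampus of 1 adult male wild-type mouse aged 10 to 12 weeks. All 4 groups of 5 mice received antibody injections into the abdominal cavity, and brains were taken 72 hours after the last one. Control mice had no tumour and received isotype-matched antibody. ICI mice had no tumour and received immune checkpoint inhibitors, an anti-CTLA-4 antibody at 1 mg per dose 3 times weekly and an anti-PD-1 antibody at 200 µg per dose 2 times weekly. Melanoma mice carried D4M-3A.UV2 tumours, a mouse melanoma line injected into the skin on both sides with 500000 cells per injection and 1 week of engraftment, and received isotype-matched antibody. Melanoma plus ICI mice carried the same tumours and received both checkpoint antibodies. The labels give 3 weeks of treatment in the description of the tumour-bearing ICI mice. The tumours are a transplanted line placed outside the brain.

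The adult brain makes nearly all of its own cholesterol, because lipoproteins of the blood do not cross the blood-brain barrier. Synthesis genes are switched on together by the transcription factor SREBP2, which INSIG1 holds back in the endoplasmic reticulum when sterols are plentiful, while INSIG1 itself is an SREBP target. Astrocytes load cholesterol onto apolipoprotein E through ABCA1 and hand it to neurons, and neurons remove surplus cholesterol by hydroxylating it with CYP46A1 to an oxysterol that can leave the brain. In bulk tissue, fewer cells of a type and less RNA per cell cannot be told apart.

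On the coordinates of the deposited tables, Hmgcs1 (ENSMUSG00000093930) lies on chromosome 13 at 119690462 to 119708086 and Idi1 (ENSMUSG00000058258) on chromosome 13 at 8885501 to 8892451, both on the plus strand. Sqle (ENSMUSG00000022351) lies on chromosome 15 at 59315077 to 59331192, Insig1 (ENSMUSG00000045294) on chromosome 5 at 28071363 to 28078662 and Cyp46a1 (ENSMUSG00000021259) on chromosome 12 at 108334377 to 108362231, all on the plus strand. Abca1 (ENSMUSG00000015243) lies on chromosome 4 at 53030787 to 53159895 and Apoe (ENSMUSG00000002985) on chromosome 7 at 19696109 to 19699188, both on the minus strand. Other listed genes that overlapped the span of any of the 7 numbered 0.

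The sequences before the start sites of Hmgcs1, Insig1 and Cyp46a1 are shown because Hmgcs1 varied with each of the other genes across the mice, as described further on, although only Hmgcs1 is a synthesis enzyme. They come from RefSeq on build GRCm38.p6, 5′ to 3′ on the strand of the gene, from a window of 250 bases before the start site. The RefSeq table held 6 of the 7 genes. For Insig1 the window is cut where the gene span of the deposited tables begins, which leaves 201 bases. Capitals mark a sterol regulatory element core (TCACNCCAC), an E-box (CACGTG) or a CCAAT box, the last read as ATTGG on the reverse strand.
Hmgcs1 chr13:119690101-119690350 (+): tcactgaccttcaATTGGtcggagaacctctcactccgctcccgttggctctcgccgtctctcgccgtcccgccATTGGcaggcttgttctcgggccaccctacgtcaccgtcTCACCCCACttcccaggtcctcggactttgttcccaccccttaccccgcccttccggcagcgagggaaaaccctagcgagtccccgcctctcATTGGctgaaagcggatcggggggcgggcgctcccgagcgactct
Insig1 chr5:28071162-28071362 (+): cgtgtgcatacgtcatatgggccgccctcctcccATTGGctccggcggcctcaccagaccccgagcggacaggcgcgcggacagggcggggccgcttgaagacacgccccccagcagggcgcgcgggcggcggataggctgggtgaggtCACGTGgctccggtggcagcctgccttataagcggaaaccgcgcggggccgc
Cyp46a1 chr12:108334066-108334315 (+): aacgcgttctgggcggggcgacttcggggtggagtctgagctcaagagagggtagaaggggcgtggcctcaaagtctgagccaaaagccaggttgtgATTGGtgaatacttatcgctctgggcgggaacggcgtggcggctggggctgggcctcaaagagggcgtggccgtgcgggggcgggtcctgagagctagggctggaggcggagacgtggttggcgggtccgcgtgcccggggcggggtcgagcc
Both strands were searched, and no match overlapped another. In Hmgcs1 the sterol regulatory element core began 137 bases before the start site as TCACCCCAC, and CCAAT boxes began 237, 176 and 45 bases before it. In Insig1 an E-box began 101 bases before the start site and a CCAAT box 216 bases before it. Cyp46a1 held 1 CCAAT box, 153 bases before its start. Of the other genes, Idi1 held 2 CCAAT boxes, Abca1 held 1 E-box, and the windows of the 3 start sites of Apoe held 0 matches. The Idi1 boxes, 45 and 14 bases before its RefSeq start, lie in the 105 bases of its window inside the deposited gene span. Among 32851 promoter windows of the same length, 1.05% held the sterol regulatory element core, 6.02% the E-box and 33.8% the CCAAT box. A match is a description of these letters and not evidence of a bound site.

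Libraries held between 21990624 and 25735149 counts. Levels are given as CPM, counts per 1000000 of a library size scaled by TMM, a method that aligns the bulk of genes between libraries. Per kilobase of exon, which allows genes to be compared, Apoe had the highest level of the 7 at 716 ± 80.4 CPM per kb (SD, n = 20) and ranked 19 of 18427 genes. Cyp46a1 at 77.4 ± 10.8 and Hmgcs1 at 73.6 ± 11.7 CPM per kb followed, and these neighbours did not differ beyond their spread. Insig1 at 22.2 ± 3.38 and Sqle at 11.6 ± 1.40 CPM per kb came next, and their ranges over the libraries, 18.5 to 30.8 and 9.01 to 14.3, did not overlap. Abca1 at 4.39 ± 1.03 and Idi1 at 3.79 ± 0.559 CPM per kb were the lowest and overlapped each other. Over the 20 libraries the coefficient of variation was 11.2% for Apoe, 12.1% for Sqle, 14.0% for Cyp46a1, 14.7% for Idi1, 15.3% for Insig1, 15.8% for Hmgcs1 and 23.6% for Abca1, against a median of 18.9% over all genes tested.

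Markers of neurons and astrocytes were present in all 20 libraries, for example Snap25 at 1517.5 to 2235 CPM and Slc1a2 at 1430.0 to 2522 CPM, and the CA1 marker Fibcd1 at 10.3 to 193 CPM. Choroid plexus markers, of which Ttr ranged from 2.14 to 5980 CPM, and neocortex markers varied widely within groups. The striatum score, the mean log2 CPM of 6 striatal markers, was 5.51, 6.87 and 6.05 in libraries 1, 3 and 5 of melanoma and 5.83 in library 3 of melanoma plus ICI, against 2.89 to 3.77 in the other 16 libraries. Libraries 4 of control and 1 of melanoma plus ICI stood apart in another way. Their counts leaned towards short transcripts: the median log2 deviation of genes up to 2128 bases minus that of genes from 5828.5 bases was 0.63 and 0.37 in these libraries and lay between -0.17 and 0.07 in the other 18.

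Hmgcs1 encodes the synthase that makes HMG-CoA early in the pathway. Its level in libraries 1 to 5 was 262, 182, 220, 305 and 215 CPM in control and 260.3, 226, 201, 188 and 249 CPM in ICI. It was 193, 235, 261, 216 and 225 CPM in melanoma and 331, 255, 239, 226 and 270.4 CPM in melanoma plus ICI. The highest value was library 1 of melanoma plus ICI and the next was library 4 of control, the libraries that leaned towards short transcripts, and all 4 groups overlapped.

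Idi1 encodes the isomerase that turns isopentenyl pyrophosphate into its reactive partner for chain building. It was measured at 15.05, 11.99, 14.1, 13.6 and 13.3 CPM in control and at 13.6, 14.6, 11.05, 13.3 and 12.9 CPM in ICI. In melanoma it was 12.2, 14.7, 10.1, 10.1 and 14.2 CPM, and in melanoma plus ICI 18.6, 14.9, 14.1, 11.8 and 11.6 CPM. A single library, number 1 of melanoma plus ICI, lay above all others, and the groups overlapped.

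Sqle encodes squalene epoxidase, which oxidises squalene on the way to lanosterol. Its levels were 76.9, 53.04, 62.1, 63.98 and 57.7 CPM in control and 70.7, 65.1, 60.9, 49.996 and 67.2 CPM in ICI. They were 55.7, 58.7, 58.6, 62.99 and 62.6 CPM in melanoma and 79.5, 69.7, 65.3, 65.2 and 76.0 CPM in melanoma plus ICI. The lowest melanoma plus ICI library, at 65.2 CPM, lay just above the highest melanoma library, at 62.99 CPM. Both groups overlapped control and ICI.

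Insig1 was at 74.3, 59.0, 60.3, 68.1 and 79.2 CPM in control and at 69.2, 65.3, 60.1, 61.9 and 63.7 CPM in ICI. The values were 57.1, 66.0, 63.5, 63.5 and 66.7 CPM in melanoma and 95.2, 64.4, 92.9, 63.6 and 77.7 CPM in melanoma plus ICI. Libraries 1 and 3 of melanoma plus ICI were the highest of the 20, whereas libraries 2 and 4 of that group lay inside the range of every other group.

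Cyp46a1 was at 208, 121, 156, 172 and 152 CPM in control and at 187, 152, 152, 135 and 193 CPM in ICI. It was at 164, 142, 178, 133 and 164 CPM in melanoma and at 179, 176, 193, 146 and 178 CPM in melanoma plus ICI. Both the highest and the lowest of the 20 values were control libraries, and the ranges of the other 3 groups lay within the control range.

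Abca1 was at 36.4, 61.4, 42.8, 24.9 and 48.9 CPM in control and at 45.7, 57.6, 29.96, 50.8 and 49.4 CPM in ICI. It was at 45.3, 47.1, 45.6, 42.8 and 53.5 CPM in melanoma and at 26.7, 43.7, 65.2, 55.0 and 37.4 CPM in melanoma plus ICI. The lowest values were library 4 of control and library 1 of melanoma plus ICI, and the melanoma libraries lay closest together, with 4.01 CPM of SD against 10.3 to 15.003 CPM in the other groups.

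Apoe was at 1575, 1514, 1549.8, 2133 and 1530.3 CPM in control and at 1417, 1277, 1457, 1515 and 1485 CPM in ICI. It was at 1386, 1377, 1575, 1547 and 1438 CPM in melanoma and at 1621, 1618, 1383, 1665 and 1552 CPM in melanoma plus ICI. Library 4 of control was far above all others. The highest ICI library, at 1515 CPM, was just above the lowest control library, at 1514 CPM, so these groups overlapped only at their edges.

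**Figure D1:**
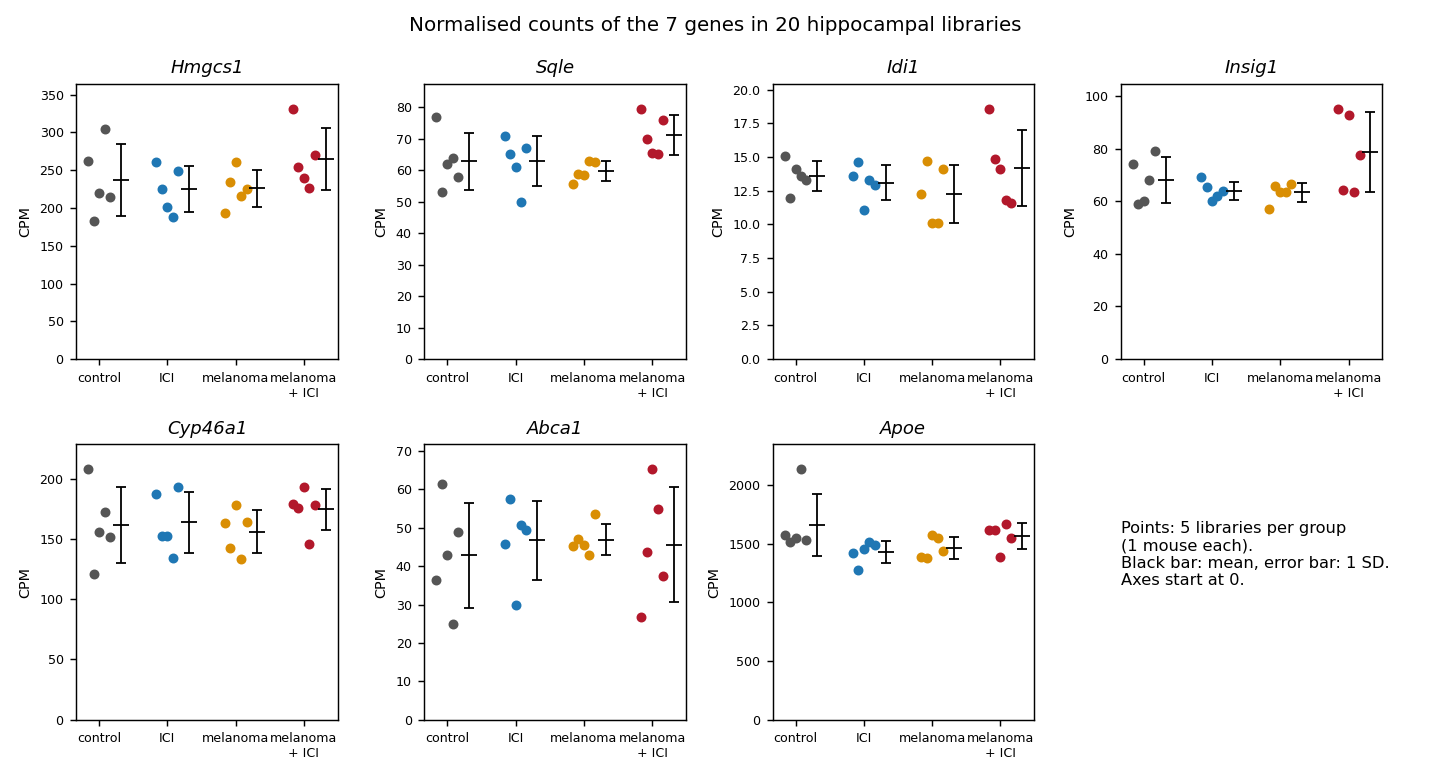
Normalised level (CPM, axes from 0) of each of the 7 genes in the 4 groups; each point is 1 library from 1 mouse, and the black bar with its error bar is the mean ± 1 SD of 5 libraries. Groups overlap in every panel except melanoma against melanoma plus ICI for Sqle, and control library 4 stands apart for Apoe at 2133 CPM.

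Differences between groups were tested with edgeR's quasi-likelihood test, fitted to all 20 libraries and all 18427 genes, with Benjamini-Hochberg adjustment and a threshold of 0.05. Fold changes are on the log2 scale. The labels say that each library is a separate mouse, so the spread is that between animals. The numbers in the library names run in a separate range for each group, except that library 5 of ICI and library 1 of melanoma plus ICI carry the same number, and their meaning is not given in the sources used here. If they mark an order of handling, it cannot be told apart from the groups. In all 6 comparisons 0 of the 7 genes passed, against 0% of all genes tested. The smallest adjusted p of the 7 was 0.484 in edgeR's quasi-likelihood test, in the interaction. Counts at an unadjusted p under 0.05 are therefore given beside the share of all genes that reached it.

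ICI was compared with control to see what checkpoint inhibition did in tumour-free mice. Apoe had a mean of 1430.2 ± 92.9 CPM in ICI and 1660.4 ± 265 CPM in control (SD, n = 5 each), a log2 difference of -0.22 (SE 0.10, 95% interval -0.42 to -0.02, adjusted p = 0.766 in edgeR's quasi-likelihood test). It was the 1 member of the 7 at an unadjusted p under 0.05, which 5.23% of all genes reached, and the groups of 0 members failed to overlap, against 0.885% of all genes. Without library 4 of control the Apoe difference was -0.11, and the signs of Abca1 and Hmgcs1, given next, turned to -0.025 and 0.029. Of the 5 ICI libraries, 4 lay below all controls. The other members differed by -0.07 (Hmgcs1), 0.00 (Sqle), -0.06 (Idi1), -0.09 (Insig1), 0.02 (Cyp46a1) and 0.12 (Abca1). Their intervals reached from -0.35 to 0.29 for the first 5 and from -0.35 to 0.59 for Abca1, so differences within these bounds were not resolved. Leaving out each library in turn gave -0.14 to -0.034 for Insig1 and -0.10 to -0.0061 for Idi1.

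Melanoma was compared with control to see what a distant tumour did without treatment. In this comparison 6 of 7 members had lower means in melanoma, and 0 reached an unadjusted p under 0.05, against 5.11% of all genes. Non-overlapping groups were found for 0 members and for 1.04% of all genes. Apoe differed by -0.18 (SE 0.10, interval -0.38 to 0.02), from 1660.4 ± 265 to 1465 ± 91.4 CPM, and by -0.08 without library 4 of control. Idi1 differed by -0.15, Insig1 by -0.11, Sqle and Hmgcs1 by -0.07, Cyp46a1 by -0.05 and Abca1 by 0.13. Without library 4 of control, Abca1 turned to -0.023 and Hmgcs1 to 0.034. Leaving out each library in turn gave -0.16 to -0.054 for Insig1. These values share the control libraries with those of ICI and are set beside them only as a record of each.

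Melanoma plus ICI was compared with the 3 other groups. Against control, 6 of 7 members had higher means and 0 reached an unadjusted p under 0.05, against 2.38% of all genes. Non-overlap was found for 0 members and 0.304% of all genes. Insig1 differed by 0.21 (SE 0.11, interval -0.02 to 0.44), Sqle by 0.18 (interval -0.03 to 0.39) and Hmgcs1 by 0.16 (interval -0.12 to 0.44). Cyp46a1 differed by 0.11, Abca1 by 0.09, Idi1 by 0.06 and Apoe by -0.08. All of these intervals included 0. Without library 1 of melanoma plus ICI, Hmgcs1 differed by 0.054, Insig1 by 0.12, Idi1 by -0.068 and Abca1 by 0.22. Without library 4 of control Hmgcs1 differed by 0.27, Abca1 by -0.057 and Apoe by 0.022. Leaving out each library in turn gave 0.014 to 0.21 for Cyp46a1.

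Against melanoma, which shows what ICI did in tumour-bearing mice, Insig1 and Sqle reached an unadjusted p under 0.05, that is 2 of 7 members against 5.5% of all genes. Insig1 had 78.8 ± 15.1 CPM in melanoma plus ICI and 63.4 ± 3.76 CPM in melanoma (SD, n = 5 each), a log2 difference of 0.31 (SE 0.11, interval 0.08 to 0.54, adjusted p = 0.825 in edgeR's quasi-likelihood test). With 3 of the 5 melanoma plus ICI libraries above all melanoma libraries, the difference rested on part of the group. Sqle had 71.1 ± 6.42 and 59.7 ± 3.07 CPM, a difference of 0.25 (SE 0.10, interval 0.04 to 0.46, adjusted p = 0.825 in edgeR's quasi-likelihood test), and its 5 libraries all lay above the 5 of melanoma. This non-overlap was found for 1 of 7 members and 1.54% of all genes. Hmgcs1 differed by 0.23, Idi1 by 0.21, Cyp46a1 by 0.16, Apoe by 0.10 and Abca1 by -0.04. Without library 1 of melanoma plus ICI, Hmgcs1 differed by 0.13, Idi1 by 0.09, Abca1 by 0.10, Sqle by 0.21 and Insig1 by 0.23.

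Against ICI, 1 of 7 members reached an unadjusted p under 0.05, beside 8.63% of all genes, and 0 members were without overlap, beside 1.45%. This was Insig1, with 78.8 ± 15.1 CPM against 64.03 ± 3.47 CPM and a difference of 0.30 (SE 0.11, interval 0.07 to 0.53, adjusted p = 0.563 in edgeR's quasi-likelihood test). Hmgcs1 differed by 0.23, Sqle by 0.18, Apoe by 0.13, Idi1 by 0.12, Cyp46a1 by 0.09 and Abca1 by -0.03. Without library 1 of melanoma plus ICI, Hmgcs1 differed by 0.13, Idi1 by -0.0071 and Abca1 by 0.10. For Apoe, 4 of the 5 melanoma plus ICI libraries lay above all 5 ICI libraries. The 3 comparisons share the melanoma plus ICI libraries.

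The interaction, the ICI difference among mice with tumours less the ICI difference among mice without, was positive for 6 of 7 members. Insig1 had 0.40 (SE 0.16, interval 0.08 to 0.73) and Apoe 0.31 (SE 0.14, interval 0.03 to 0.60), each with an adjusted p of 0.484 in edgeR's quasi-likelihood test. These 2 of 7 members reached an unadjusted p under 0.05, which 10.3% of all genes reached in this contrast. Apoe had a lower mean with ICI in tumour-free mice and a higher mean with ICI in tumour-bearing mice. Its interaction was 0.22 without library 4 of control. Hmgcs1 had 0.30, Idi1 0.27, Sqle 0.25, Cyp46a1 0.14 and Abca1 -0.16, and their intervals included 0. Without library 1 of melanoma plus ICI, Idi1 had 0.15 and Abca1 -0.020, and without library 4 of control Abca1 had -0.0088. Without both, Abca1 had 0.13 and Hmgcs1 0.11.

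**Figure D2:**
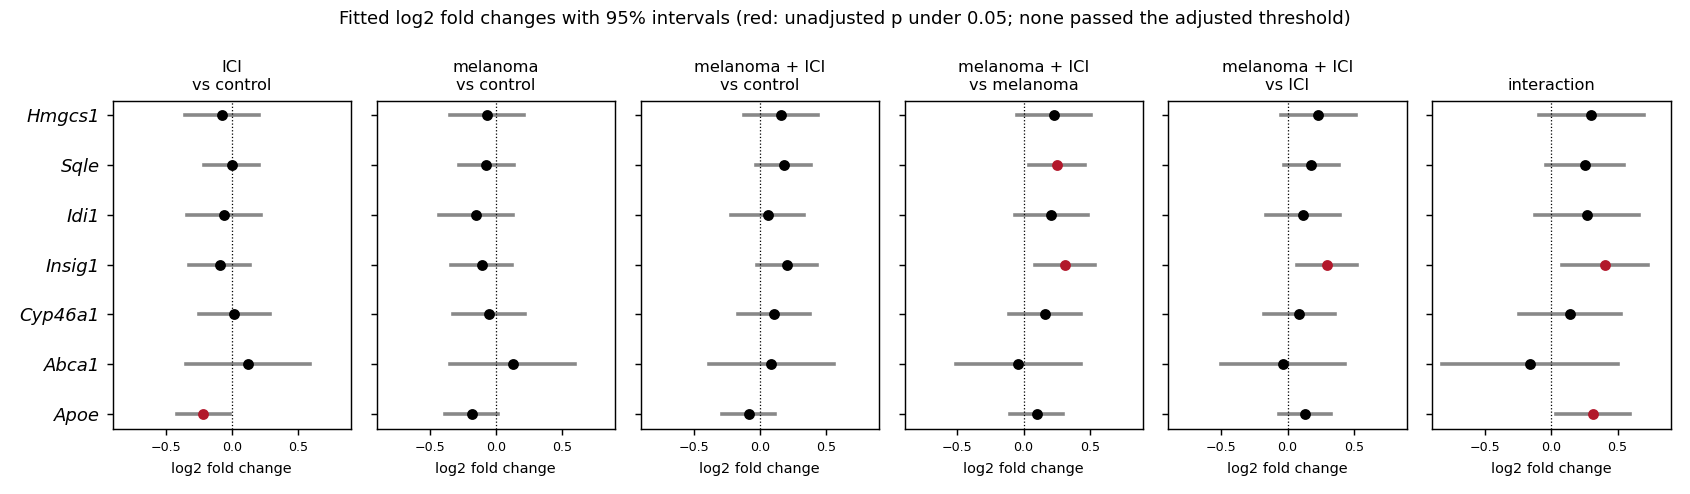
Fitted log2 fold change (point) and 95% interval (bar) of each gene in the 5 pairs of groups and the interaction; red points have an unadjusted p under 0.05. Red points are Apoe in ICI vs control, Sqle and Insig1 in melanoma plus ICI vs melanoma, Insig1 against ICI, and Insig1 and Apoe in the interaction, and 0 genes passed the adjusted threshold.

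The other genes of the pathway were followed in 6 lists with 57 genes in all, the 7 included, and 57 of 57 were tested. By edgeR's quasi-likelihood test 0 of the 57 passed the threshold in any comparison, and 5, 5, 1, 9, 11 and 13 had an unadjusted p under 0.05 in the order of comparisons above. The shares of all genes at that level were 5.23%, 5.11%, 2.38%, 5.5%, 8.63% and 10.3%. Most of the 20 synthesis enzymes had higher means in melanoma plus ICI. This held for 18 of 20 against control, 18 of 20 against melanoma and 19 of 20 against ICI, with median log2 differences of 0.15, 0.21 and 0.17, beside medians of 0.00, 0.02 and 0.02 over all genes. In ICI and in melanoma against control, 16 of 20 were lower, with medians of -0.06 and -0.08, beside -0.01 over all genes in both. With DESeq2 size factors 16 of 20 were higher in melanoma plus ICI against control, with a median of 0.14. All 20 were measured in the same mice, so these counts do not stand for 20 separate observations.

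Against melanoma, the largest differences among the synthesis enzymes were 0.44 (SE 0.17) for Msmo1, a sterol demethylation enzyme, and 0.41 (SE 0.10) for Nsdhl, which acts in the same demethylation steps. Nsdhl was at 22.4 ± 2.05 CPM in melanoma plus ICI and 16.9 ± 0.74 CPM in melanoma (SD, n = 5 each), and its adjusted p was 0.825 in edgeR's quasi-likelihood test. Cyp51, the lanosterol demethylase, differed by 0.31 (SE 0.12), and its span overlaps Akap9 on the opposite strand. Lss, lanosterol synthase, and Lbr, a sterol reductase of the nuclear envelope, went the other way, at -0.06 and -0.14.

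The count against control depended on single libraries. Leaving out each of the 20 libraries in turn gave 12 to 19 synthesis genes higher against control, 18 to 19 against melanoma and 18 to 20 against ICI. The lowest count, 12 with a median of 0.05, came without library 1 of melanoma plus ICI, and the medians against melanoma and against ICI were then 0.12 and 0.11. Without both libraries that leaned towards short transcripts the counts were 17, 18 and 19 and the medians 0.13, 0.13 and 0.12. The lower levels in ICI and in melanoma against control leaned on library 4 of control: without it 11 and 13 of 20 were lower, with medians of -0.013 and -0.033. In limma voom with quality weights 11 and 12 were lower, with medians of -0.00072 and -0.029. With the choroid plexus, striatum, neocortex and dentate gyrus scores as covariates 13 and 15 were lower, with medians of -0.035 and -0.060. Library 2 of control acted the other way: without it 18 and 17 were lower, with medians of -0.13 and -0.16, and the median of melanoma plus ICI against control was 0.052 with 14 of 20 higher. The median was also -0.039 for ICI without library 1 of control, -0.097 for ICI without library 5 of ICI and -0.12 for melanoma without library 3 of control.

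**Figure D3:**
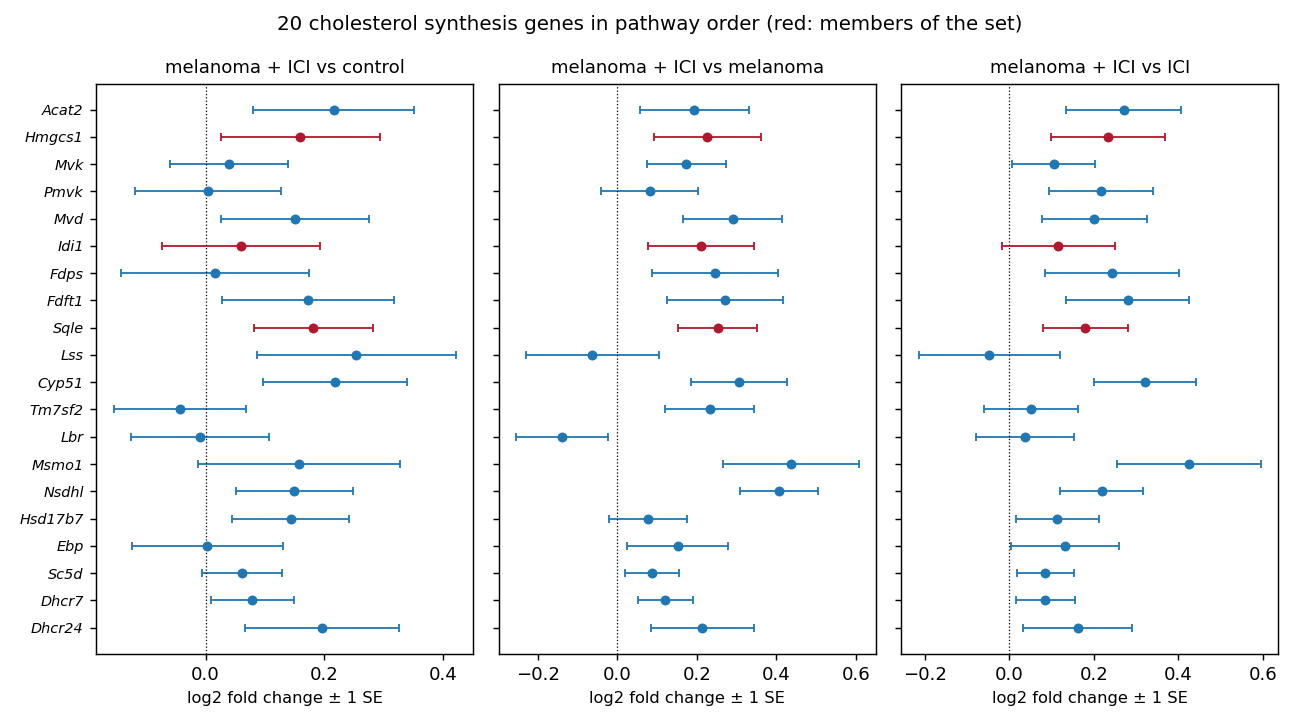
Log2 fold change ± 1 SE of the 20 synthesis genes, in pathway order from top to bottom, in melanoma plus ICI against control, melanoma and ICI; the members Hmgcs1, Idi1 and Sqle are red. Points lie to the right of 0 for 18, 18 and 19 of the 20 genes, and many error bars reach close to 0.

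The pathway genes outside the 7 with the smallest p in each comparison included receptors and sterol handling proteins. Lsr, a lipolysis-stimulated lipoprotein receptor, was at 5.94 ± 0.84 CPM in control and 3.83 ± 0.45 CPM in ICI (SD, n = 5 each). With tumours it was at 4.51 ± 0.18 CPM without ICI and 5.88 ± 0.52 CPM with ICI. Its log2 difference was -0.63 for ICI and -0.40 for melanoma against control. It was 0.38 for melanoma plus ICI against melanoma, 0.62 against ICI and 1.02 in the interaction, where its adjusted p was 0.0912 in edgeR's quasi-likelihood test. Lsr passed the threshold in the interaction in DESeq2 (adjusted p = 0.000121), in limma voom (adjusted p = 0.0101) and in edgeR without library 4 of control (adjusted p = 0.0201), library 4 of ICI (adjusted p = 0.0245) or library 3 of melanoma plus ICI (adjusted p = 0.0245). In DESeq2 it also passed in ICI against control (adjusted p = 0.00844) and in melanoma plus ICI against ICI (adjusted p = 0.00946). In edgeR's quasi-likelihood test the adjusted p of Lsr there was 0.480 and 0.318, and only DESeq2 called it in these comparisons. It lies across 2 genes on the opposite strand, and whether counting used strand is not stated in the sources used here. Npc2, which hands cholesterol out of lysosomes, had a similar course at 65.2 ± 9.23, 47.5 ± 5.44, 54.4 ± 4.08 and 63.3 ± 8.85 CPM in the same order of groups. Its difference was -0.46 for ICI against control, 0.41 for melanoma plus ICI against ICI and 0.67 in the interaction, with an adjusted p of 0.253 in edgeR's quasi-likelihood test and of 0.0282 in DESeq2, where it passed.

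Markers of vessels, of the choroid plexus and of the meninges, the coverings of the brain, were also lower in ICI than in control by their medians over libraries. The summed level of the 5 endothelium markers, none at 0 in any library, ranged from 170 to 204 CPM in control, from 137 to 171 CPM in ICI, from 164 to 195 CPM in melanoma and from 170.3 to 238 CPM in melanoma plus ICI. The 6 meninges markers had median sums of 263 CPM in control and 126 CPM in ICI, and of 145 CPM and 204 CPM in melanoma without and with ICI. For the 7 choroid plexus markers these medians were 2530.3 CPM in control, 721 CPM in ICI, 428 CPM in melanoma and 2178 CPM in melanoma plus ICI, and the ranges of all 4 groups overlapped, the widest from 66.6 to 6520.02 CPM in melanoma plus ICI. With the choroid plexus, striatum, neocortex and dentate gyrus scores as covariates, the interaction was 0.89 for Lsr and 0.54 for Npc2, with adjusted p of 0.327 and 0.343 in edgeR's quasi-likelihood test. The part of the endothelium and meninges scores in these differences was not tested.

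Clu, another brain apolipoprotein, differed by -0.17 in ICI against control. Lcat, which esterifies cholesterol on lipoproteins, differed by -0.41 and Nsdhl by -0.26 in melanoma against control. Cyp7b1, an oxysterol hydroxylase, differed by -0.43 (SE 0.23) in melanoma plus ICI against control, with an adjusted p of 1.00 in edgeR's quasi-likelihood test. Stard4, a sterol transfer protein, differed by 0.35 (SE 0.18) against control and by 0.47 against melanoma. Nsdhl differed by 0.48 in the interaction. Ch25h, which makes an oxysterol in immune cells, was at or below 0.87 CPM on average in every group, and its differences of 1.40 and 2.03 in melanoma plus ICI against control and ICI rest on few counts.

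Levels of several of the 7 genes moved together from mouse to mouse. Of the 21 pairs, 7 had a Pearson correlation past an adjusted p of 0.05 over the 20 libraries, tested by two-sided permutation of log2 CPM with Benjamini-Hochberg adjustment over the 21 pairs. Hmgcs1 and Sqle gave r = 0.79 (permutation p = 3e-05, adjusted p = 0.00063) and rho = 0.79 (permutation p = 7e-05, adjusted p = 0.00147), and r = 0.83 without the 2 libraries farthest from the median of Hmgcs1. Cyp46a1 had r = 0.71 with Sqle (rho = 0.72) and 0.70 with Hmgcs1 (rho = 0.74), each with a permutation adjusted p of 0.00357 for r, and r was 0.69 and 0.79 without the farthest libraries. Insig1 had r = 0.62 with Hmgcs1 (rho = 0.67, permutation adjusted p = 0.0181 for r) and 0.59 with Sqle (rho = 0.66, permutation adjusted p = 0.0218 for r), and 0.50 and 0.45 without the farthest libraries. Both rho values of Insig1 had a permutation adjusted p of 0.00886. Idi1 had r = 0.44 with Hmgcs1, 0.41 with Sqle and 0.52 with Insig1, none past the threshold.

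Abca1 ran opposite to Hmgcs1 (r = -0.58, permutation adjusted p = 0.022, and rho = -0.45, permutation adjusted p = 0.0996) and to Apoe (r = -0.61, permutation adjusted p = 0.0181, and rho = -0.54, permutation adjusted p = 0.0478), but these relations rest on library 4 of control and library 1 of melanoma plus ICI: without them r was -0.21 and -0.28. With group means removed, 5 of the 21 pairs passed, which were those among Hmgcs1, Sqle and Cyp46a1 and both Abca1 pairs above. Without library 4 of control and library 1 of melanoma plus ICI, 3 passed, which were the pairs among Hmgcs1, Sqle and Cyp46a1. Insig1 with Hmgcs1 and with Sqle passed in neither setting. Their r was 0.50 and 0.41 with group means removed (permutation adjusted p = 0.0886 and 0.145). It was 0.50 and 0.46 without those libraries (permutation adjusted p = 0.137 and 0.197). Each group holds 5 libraries, too few for a correlation within it.

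The length lean of a library was set against the 7 genes after its values were seen. Over 20 libraries Abca1, which has 10363 bases of exon and itself belongs to the long genes, gave r = -0.82 (permutation p = 1e-05, the smallest that 100000 resamples can give, adjusted over 7 relations p = 7e-05) and rho = -0.80 (permutation p = 3e-05). Apoe, with 2138 bases, gave r = 0.82 (permutation adjusted p = 0.000315) and rho = 0.69 (permutation p = 0.00082). Without the 2 libraries with the strongest lean, r was -0.70 for Abca1 and 0.59 for Apoe. Hmgcs1 gave r = 0.68 (permutation adjusted p = 0.00189) and rho = 0.53 (permutation p = 0.0179), with r = 0.36 without those libraries, and the other 4 genes gave 0.22 to 0.35, none past the threshold. What part the length lean has in the group differences of Abca1 and Apoe was not tested beyond leaving those libraries out.

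**Figure D4:**
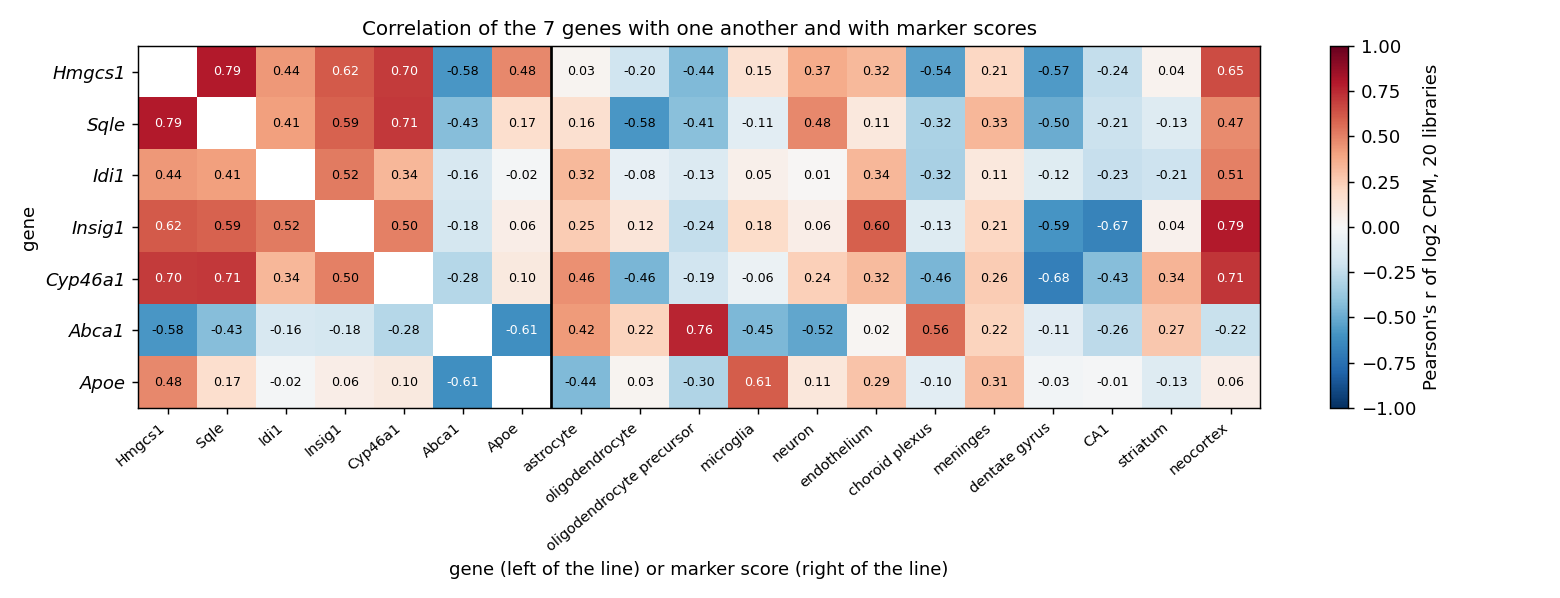
Pearson's r of log2 CPM over 20 libraries between the 7 genes (left of the line) and between each gene and 12 marker scores (right of the line), with red for positive and blue for negative values. The block of Hmgcs1, Sqle, Insig1 and Cyp46a1 is positive throughout. Abca1 is negative with the other 6 genes, from -0.16 with Idi1 to -0.61 with Apoe. Without library 4 of control and library 1 of melanoma plus ICI, Abca1 was positive with Idi1 (0.25) and Insig1 (0.18) and stayed negative with the others.

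A marker score is the mean log2 CPM of the markers of a cell type or neighbouring region. Of 84 relations between the 7 genes and 12 scores, 6 passed an adjusted p of 0.05. Insig1 followed the neocortex score with r = 0.79 (permutation adjusted p = 0.00252) and rho = 0.76 (permutation adjusted p = 0.0126), and r = 0.64 without the 2 libraries farthest in Insig1. Cyp46a1 gave r = 0.71 (permutation adjusted p = 0.0148) and Hmgcs1 r = 0.65 (permutation adjusted p = 0.0321) with the same score, and rho was 0.69 and 0.63 (permutation adjusted p = 0.028 and 0.0539). Cyp46a1 was also opposite to the dentate gyrus score (r = -0.68, rho = -0.65, permutation adjusted p = 0.0202 for r). Insig1 was opposite to the CA1 score (r = -0.67, rho = -0.48, permutation adjusted p = 0.0403 for r). Abca1 was in step with the score of oligodendrocyte precursors (r = 0.76, rho = 0.59, permutation adjusted p = 0.00966 for r). Without the libraries farthest in each gene, these 3 values were -0.59, -0.34 and 0.57. Without library 4 of control and library 1 of melanoma plus ICI, 8 relations passed, of which 3 were among the 6: Insig1 and Cyp46a1 with the neocortex score and Cyp46a1 with the dentate gyrus score. The other 3 were lost, at r = 0.53 for Hmgcs1 with the neocortex score (permutation adjusted p = 0.134), -0.71 for Insig1 with the CA1 score (permutation adjusted p = 0.0534) and 0.57 for Abca1 with the precursor score (permutation adjusted p = 0.0993). The 5 gained were Apoe with the meninges score (r = 0.73, against 0.31 in all 20 libraries), Sqle with the oligodendrocyte score (-0.72, against -0.58), Insig1 with the endothelium score (0.67, against 0.60), and Hmgcs1 and Insig1 with the dentate gyrus score (-0.75 and -0.67, against -0.57 and -0.59). The part of the meninges and endothelium scores in the group differences of Apoe and Insig1 was not tested. With the oligodendrocyte score as a covariate the Sqle difference of melanoma plus ICI against melanoma was 0.17. With group means removed 13 of the 84 relations passed. Among those gained, the choroid plexus score ran opposite to Hmgcs1 (r = -0.76, permutation adjusted p = 0.00315). It also ran opposite to Sqle and Cyp46a1 (r = -0.58 for each, permutation adjusted p = 0.0455). Without that step these r were -0.54, -0.32 and -0.46, none past the threshold. Idi1 and Insig1 did not pass with this score (-0.48 and -0.38 with group means removed). Its part in the correlations among the genes was not tested.

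The neocortex score stood beside the Insig1 differences as follows. All 6 neocortex markers were detected in all 20 libraries, and their summed level ranged from 189 to 523 CPM in melanoma plus ICI. It ranged from 182 to 282 CPM in melanoma, from 179 to 325 CPM in ICI and from 148 to 359.7 CPM in control. Libraries 1 and 3 of melanoma plus ICI, the highest for Insig1, had the highest neocortex scores of the 20, at 5.96 and 6.09. Library 3 also had the lowest CA1 and dentate gyrus scores of the 20, at 4.43 and 3.12. Without library 3 the Insig1 difference was 0.25 against melanoma, 0.24 against ICI and 0.14 against control. With the choroid plexus, striatum, neocortex and dentate gyrus scores as covariates, the Insig1 difference was 0.19 against melanoma, 0.19 against ICI and 0.19 in the interaction, and that of Sqle against melanoma was 0.20. In limma voom with quality weights the Insig1 difference against melanoma was 0.19.

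**Figure D5:**
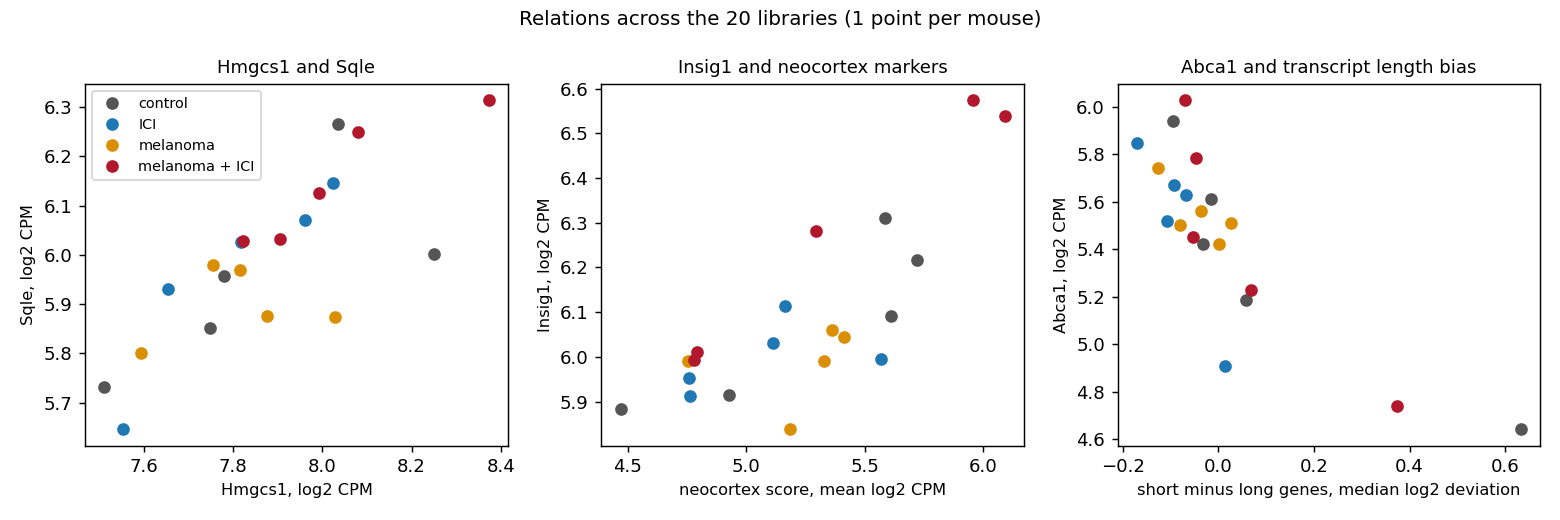
Relations across 20 libraries, 1 point per mouse and coloured by group: Sqle against Hmgcs1 (log2 CPM), Insig1 against the neocortex score (mean log2 CPM) and Abca1 against the length lean of the library (short minus long genes, log2). Pearson's r is 0.79, 0.79 and -0.82, and the points at the far right of the length panel are library 4 of control and library 1 of melanoma plus ICI.

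For each of the 7 genes, the genes whose log2 CPM was most like it were taken by Pearson's r over the 20 libraries, among 15474 named genes that averaged 1 CPM or more. These were Nap1l1 (r = 0.96), Aida and Rnf227 for Hmgcs1, and Rnf14 (r = 0.86), Polr2m and Plekhb2 for Sqle. For Idi1 they were Stard4 (r = 0.75), Olfm3 and Edil3, and for Insig1 Rassf3 (r = 0.85), Nlk and Tmem65. For Cyp46a1 they were Hrh1 (r = 0.91), Camk1 and Arrdc1, for Abca1 Lrp6 (r = 0.96), Wnk1 and Hipk2, and for Apoe Cnpy2 (r = 0.88), S100a16 and Apoo. Among the 100 genes most like each, those of the pathway lists, which make up 0.355% of all genes compared, numbered 5 for Sqle (Nsdhl, Hmgcs1, Dhcr7, Mvd and Acat2) and 4 for Hmgcs1 (Msmo1, Fdft1, Acat2 and Cyp51). They numbered 2 for each of Insig1 and Idi1 (Stard4 and Cyp51 in both), 1 for Abca1 (Npc1) and 0 for Cyp46a1 and Apoe. Cyp51 was the 1 synthesis enzyme among them for Idi1 and for Insig1. High r values were common: the 100th gene still had r = 0.84 for Hmgcs1 and 0.86 for Abca1, and 0.57 for Idi1. The libraries that leaned towards short transcripts were included, and the part of the length lean in this likeness was not tested.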

How the data were processed

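Bulk RNA-seq tables of 20 mouse hippocampi were used, with groups and replicate numbers taken from the sample titles. The deposited values are raw counts per gene, whole numbers in the layout that featureCounts writes, per the file headers. STAR 2.5.2b and DESeq2 1.16.1 are named in the submitters' processing notes without a role. The counting program, the strand setting, the annotation release and the genome build are not given in the sources used here. Of the 49671 gene identifiers, 49412 occur in GENCODE M21 (GRCm38) and 45214 have the same start and end there. Reads counted on exons without a stated strand setting may include reads of overlapping genes.

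Genes were tested with edgeR 4.0.16 in R 4.3.3: filterByExpr with a minimum count of 10 and a minimum total of 15 (18427 genes), TMM, a robust quasi-likelihood fit with 1 mean per group, and Benjamini-Hochberg adjustment within each of 6 contrasts. The SE is the fold change divided by the root of the F statistic, and the 95% interval uses the residual and prior degrees of freedom. Log2 CPM used a prior count of 2. Correlations used 100000 resamples. The fitting code was also run on simulated data, and that outcome is not reported here. Libraries held 21990624 to 25735149 counts, and Idi1, the lowest member, had 6266 counts over the 20 libraries.

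The 7 genes, the pathway and marker lists and the tests were chosen with earlier results of these data known, so no p of a group difference is adjusted over a list alone. Correlation p-values are adjusted over the relations computed among these chosen genes and scores. Some genes of the pathway are not reported here. Besides the 7, the text names the 3 pathway genes with the smallest p per comparison and the 3 genes most like each member. Msmo1, Cyp51, Lss and Lbr in the comparison with melanoma were picked after their values were seen. Alternatives were a block for the replicate number, a fit to the compared groups alone, an unfiltered table, size factors of DESeq2 1.42.0 and its own test, voom of limma 3.58.1 with quality weights, tissue scores as covariates, and leaving out libraries. The counts of synthesis genes with higher levels and the length relations were added after the data were seen. Promoter windows came from RefSeq. Sqle is not in that table.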

Additional observations from a re-analysis of the deposited data

Results flagged for a closer look

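Apoe in library 4 of control, at 2133 CPM, lay far above the other control libraries, the nearest of which was at 1575 CPM. The gap was 0.901 of the range of the group, which is more than Dixon's test allows for 5 values at the 95% level. The test was made for 28 groups (7 genes in 4 groups) and flagged 1. Chance alone flags about 1 in 20 such tests. The same library had the strongest lean towards short transcripts, 0.63 on the log2 scale, and its part in the Apoe value was not tested. Without it the Apoe difference of ICI against control was -0.11 instead of -0.22, that of melanoma against control -0.08 instead of -0.18, and that of melanoma plus ICI against control 0.022 instead of -0.08.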

How the results depend on the processing

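The 42 log2 differences of the 7 genes were recomputed in 1211 alternatives. In 0 of these a member passed the threshold, and adjusted p ranged from 0.232 to 1. The sign changed in 62 alternatives of 16 differences, and the cause was not tested. Leaving out single libraries gave ranges across 0 for Abca1 against control of -0.025 to 0.28 (ICI), -0.023 to 0.28 (melanoma) and -0.075 to 0.24 (melanoma plus ICI), and of -0.20 to 0.10 and -0.19 to 0.10 for melanoma plus ICI against melanoma and ICI. Such ranges against control were -0.058 to 0.079 and -0.13 to 0.0044 for Sqle (ICI, melanoma), -0.074 to 0.12 and -0.15 to 0.048 for Cyp46a1, and -0.16 to 0.029 and -0.16 to 0.034 for Hmgcs1. For melanoma plus ICI they were -0.068 to 0.12 (Idi1) and -0.12 to 0.022 (Apoe). For Idi1 against ICI the range was -0.0071 to 0.18.
The other sign changes were as follows. In ICI against control, Sqle had -0.0024 with size factors, -0.0026 in DESeq2, -0.0042 with only these groups, -0.0078 with no filter and -0.043 with the oligodendrocyte score. Voom gave Hmgcs1 0.041 and 0.018 in ICI and melanoma against control, and Idi1 -0.065, Abca1 -0.030 and Apoe 0.025 in melanoma plus ICI against control, with Idi1 -0.034 against ICI. Without control 4 and melanoma plus ICI 1 together, Hmgcs1 had 0.029 and 0.034 and Abca1 -0.025 and -0.023 in ICI and melanoma against control. Idi1 had -0.058 and Apoe 0.011 in melanoma plus ICI against control, and Abca1 0.11 against melanoma, 0.11 against ICI and 0.13 in the interaction. The 4 tissue scores gave Abca1 -0.18 against control and Cyp46a1 -0.033 against ICI. The oligodendrocyte score gave Cyp46a1 -0.022 and 0.014 in ICI and melanoma against control and Abca1 0.046 against melanoma.
Over all genes, edgeR called 0 in each comparison. DESeq2 called 1 in ICI and 8 in melanoma against control, 9 against ICI and 47 in the interaction, of which 1, 0, 1 and 2 were pathway genes. Voom called 25 in melanoma plus ICI against melanoma, 1 in melanoma against control and 19 in the interaction, of which 1 was a pathway gene. Only the groups compared gave 3 in melanoma against control. Leaving out single libraries gave 0 to 3 there, 0 to 12 in melanoma plus ICI against melanoma and 0 to 11 in the interaction, with 0 to 1 pathway genes, and all 3 upper ends came without library 3 of melanoma plus ICI. Without both short-leaning libraries 1 gene passed in the interaction, Lsr. Correlated pairs numbered 3 without both libraries, and score relations 13 with group means removed.
Replicate numbers were not used to pair the mice. The 30 same-numbered pairs of libraries from different groups had r from -0.35 to 0.53, with 10 above 0.1. Their mean r was 0.032, against -0.0068 for pairs with different numbers. These values do not show whether same-numbered mice were handled together. With the replicate block 0 members and 0 genes passed in any comparison.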
